A study of Homo sapiens with 3 samples.

Results

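The TOX family consists of the 4 genes TOX, TOX2, TOX3 and TOX4, and its H3K4me1 and H3K4me3 peaks were described in ALL-SIL cells. ALL-SIL is a human T-ALL line (T-cell acute lymphoblastic leukaemia), known for a TLX1 rearrangement and a NUP214::ABL1 fusion. The 4 genes were taken from the 19974 protein-coding genes that RefSeq places on the numbered chromosomes and X in GRCh38. Every called peak that touched a gene span, or the 100 kb on either side of it, was counted for that gene. These windows held 9 of the 11100 H3K4me3 peaks and 84 of the 62087 H3K4me1 peaks.

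TOX proteins are nuclear factors that bind DNA through a shared HMG box, a domain that bends DNA. TOX is needed in mice for the development of CD4 T cells in the thymus, and it is also known for its role in exhausted T cells, where its transcription follows calcium, calcineurin and NFAT signals. TOX2 is known from natural killer and T helper cells, TOX3 from neurons and breast epithelium, and TOX4 as a broadly expressed partner of the PNUTS phosphatase complex. H3K4me3 marks active and poised starts of genes, while H3K4me1 marks enhancers and the flanks of starts, so the pair shows which family members carry a marked start and which carry candidate enhancers.

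The study comprised an H3K4me1 ChIP library, an H3K4me3 ChIP library and an input library, all from ALL-SIL with no treatment named. With 1 library for each mark, replicate error could not be had and no test was made, and every difference between genes below is a difference within that library. After filtering, 34813455 tags were left for H3K4me1, 30823016 for H3K4me3 and 18859011 for the input. Peaks covered 111 Mb for H3K4me1 and 17.6 Mb for H3K4me3. Among T lineage markers, 10 of 12 genes had H3K4me3 at a start, against 50.5% of all protein-coding genes, the exceptions being CD2 and CD5. CD3D and CD3G had the same length of 7161 bp and were counted separately. For CD5, as for CD3E, CD3G and CD7, no start was listed and either end of the span was used. In CD5, 1670 bp of H3K4me3 lay inside the gene. CD2 had 0 bp inside. All 12 had H3K4me1 inside the gene, against 60.6% of all genes. The median share of the span under H3K4me1 was 52.0% for these 12, against 2.07% over all genes. H3K4me3 was found at the start of 1 of 5 B lineage markers, and at 0 of 5 myeloid, 0 of 5 natural killer, 0 of 5 neuronal and 0 of 5 epithelial markers. Without H3K4me3 at a start, the B lineage marker PAX5 had 197 bp and the neuronal marker SYN1 832 bp inside the gene. H3K4me1 lay inside 4 of 5 B lineage markers, whose median share of the span was 33.4%, inside 2 of 5 myeloid, 2 of 5 natural killer and 1 of 5 epithelial markers, and inside 4 of 5 neuronal markers, whose median share was 0.613%.

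The family separated into a gene rich in both marks (TOX), a gene with H3K4me1 but no H3K4me3 (TOX2), a gene with no peak at all (TOX3) and a gene with H3K4me3 at its start and short H3K4me1 peaks (TOX4). H3K4me3 lay within 1 kb of a start in 2 of the 4 members, TOX and TOX4, against 50.5% of all protein-coding genes. H3K4me1 lay inside 3 of the 4 members, against 60.6% of all genes. The same 3 members had at least 1 distal H3K4me1 peak in their window, against 85.5% of all genes. A distal peak is one that touches neither an H3K4me3 peak nor the 1 kb around the ends of annotated genes, protein-coding or lncRNA. A window without any peak was found for 1 member, TOX3, against 10.7% of all genes. With 4 members these counts are a description.

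**Figure D1:**
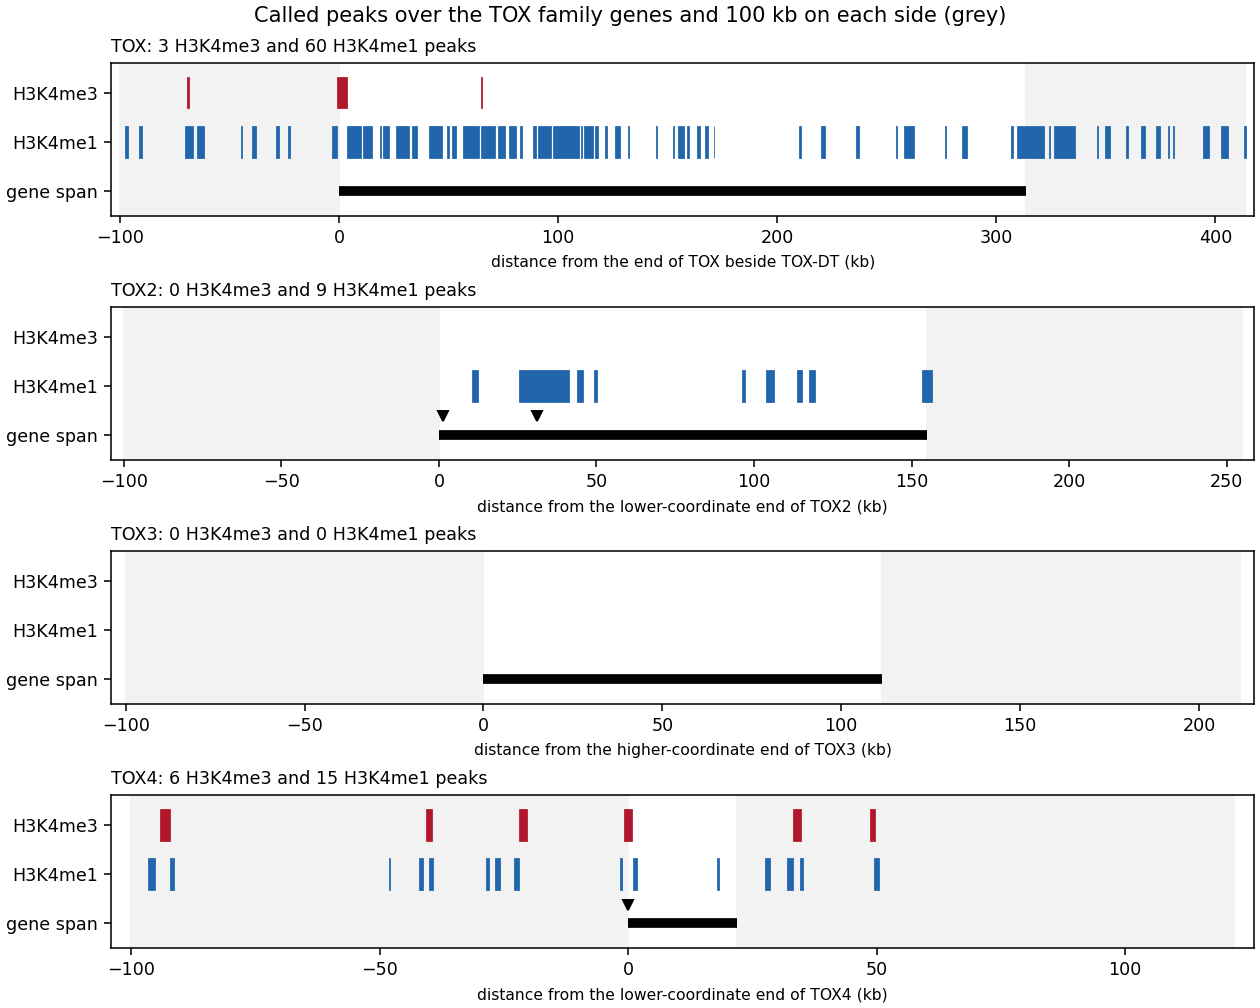
Called H3K4me3 (red) and H3K4me1 (blue) peaks over each gene span (black bar) and the 100 kb on each side (grey), with distance in kb from the named end of the gene. Triangles are listed starts, drawn where the promoter table gives them, and peaks carry a thin outline so that the shortest can be seen. TOX holds 3 H3K4me3 and 60 H3K4me1 peaks, TOX2 holds 0 and 9, TOX3 holds 0 and 0, and TOX4 holds 6 and 15.

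The H3K4me3 domain at the TOX start was the longest of the family, at 4643 bp, and the TOX4 domain measured 1671 bp, so the TOX domain was 2.78 times as long. TOX2 and TOX3 had 0 bp. Over all protein-coding genes the median was 285.5 bp, and over the 10084 genes with a marked start it was 1586 bp, with quartiles of 1148 and 2192 bp. These lengths are sums over all domains that touch the starts of a gene. Some genes above TOX, whose length is a single domain, therefore had shorter domains. KCNAB2, for example, had 5842 bp in sum and 3523 bp in its longest domain. A summed length at or above that of TOX was found at 1.19% of all genes and at 2.35% of genes with a marked start. The length at TOX4 was reached by 23.1% of all genes and by 45.7% of genes with a marked start, so TOX4 lay near the middle of the marked genes and TOX near their upper end. The fold enrichment, the caller's ratio of pileup to local background, did not follow this order, being 4.79 at the TOX domain and 4.97 at the TOX4 domain. The pileup was 22.8 fragments at TOX and 13.31 at TOX4. The local background, worked back from pileup and fold, was 3.97 fragments at TOX and 1.88 at TOX4.

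**Figure D2:**
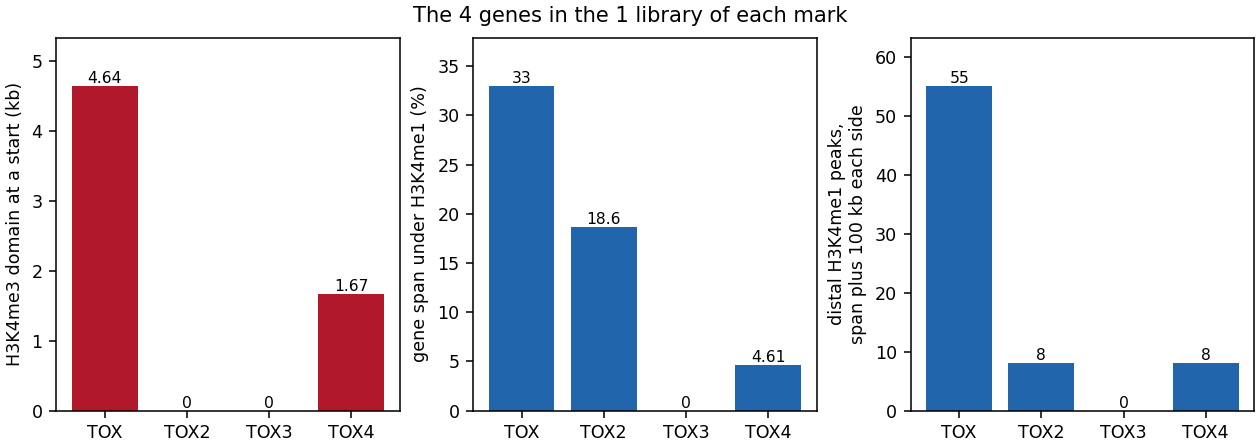
H3K4me3 length at a start (kb), share of the gene span under H3K4me1 (%) and number of distal H3K4me1 peaks for each of the 4 genes, with bars from 0 and 1 library per mark. TOX has the highest bar in all 3 panels at 4.64 kb, 33.0% and 55 peaks, and TOX3 is at 0 in all 3. All called peaks are counted, and with the 11100 H3K4me1 peaks of highest −log10 q TOX2, at 4.60%, is above TOX, at 3.57%, in the middle panel.

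TOX spans 313.736 kb on chromosome 8, from 58805412 to 59119147. Its H3K4me3 domain, a single called peak from 59115567 to 59120209, covered the higher-coordinate end of the gene together with the end of TOX-DT, a lncRNA gene that its name marks as the divergent transcript of TOX and that begins 62 bp away. Of this domain 3581 bp lay inside TOX and 1062 bp outside it. The peak ranked 172 of 11100 by length but 4943 of 11100 by fold. Its pileup of 22.8 fragments ranked 964 and its −log10 q of 14.9 ranked 2304. H3K4me1 stood on both sides of it: a peak of 6079 bp ended 234 bp away on the gene side, and a peak of 2473 bp overlapped it by 184 bp on the TOX-DT side. Only 3.96% of the domain itself lay under H3K4me1, so at the TOX start the marks lay side by side.

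The other H3K4me3 peaks near TOX lay away from any annotated gene end. A peak of 434 bp, from 59053949 to 59054382, lay inside TOX about 65 kb from the end beside TOX-DT. This short peak had a pileup of 38.24 fragments, which ranked 17 of 11100, and a −log10 q of 33.7, which ranked 69 of 11100, against a length that ranked 10310. Its fold of 8.23 ranked 759, and 49.3% of it lay under an H3K4me1 peak of 6098 bp. The remaining peak of 807 bp, from 59187616 to 59188422, lay about 68 kb beyond the same end of TOX. It was weaker, with a fold of 2.78 and a −log10 q of 4.47, and lay wholly inside an H3K4me1 peak of 3973 bp.

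H3K4me1 covered 103454 bp of TOX in 39 peaks, which is 33.0% of the span. The share was lower where weaker peaks were left out. It was 17.8% with peaks of −log10 q of at least 3, against 17.3% in TOX2. With the 11100 H3K4me1 peaks of highest −log10 q, it was 3.57%, against 4.60% in TOX2, so the order of TOX and TOX2 turned. Over all called peaks, a share this high was reached by 8.53% of all genes, but by 2.65% of the 1998 genes of the longest length decile (spans of 152316 bp or more), in which the median share was 0.921%. The peak count of 39 was reached by 0.170% of all genes and by 1.70% of the longest length decile. The lengths of the 39 peaks ran from 217 to 12541 bp around a median of 1601 bp, and 8 of them were at least 5 kb long. Over the whole TOX window 15% of the 60 peaks were at least 5 kb long, against 6.49% of all H3K4me1 peaks. The longest, of 12541 bp with a fold of 2.83, covered the end of the gene away from TOX-DT. The strongest by −log10 q measured 1263 bp, lay about 163 kb inside the gene, and had a fold of 4.67 and a −log10 q of 9.63.

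This H3K4me1 was unevenly spread along TOX. When the span was divided into 10 equal parts counted from the end beside TOX-DT, the first 4 parts were covered to 60.9%, 57.0%, 60.8% and 65.8%. The next 4 parts were covered to 18.0%, 13.0%, 3.02% and 9.21%, and the last parts, toward the far end, to 17.4% and 24.7%. The first 4 parts, 125 kb in all, therefore held 74.1% of the H3K4me1 bases inside TOX, with weak peaks counted like strong ones. The peaks of these parts had median folds of 2.91, 1.89, 2.00 and 2.34. In the other parts the median folds were 3.03, 3.13, 2.27, 3.18, 2.28 and 3.10. The highest −log10 q was 4.97 in the first 4 parts and 9.63 in the others. Neither this spread nor the joined regions below were recomputed with stricter peaks. When H3K4me1 peaks up to 12.5 kb apart were joined, a region of 135.6 kb from 58986881 to 59122498 resulted, of which 81.8 kb was covered. It ranked 83 of 22770 joined regions by covered length. A separate joined region of 74.4 kb, with 31.8 kb covered, lay over the far end of TOX and its flank and ranked 564.

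**Figure D3:**
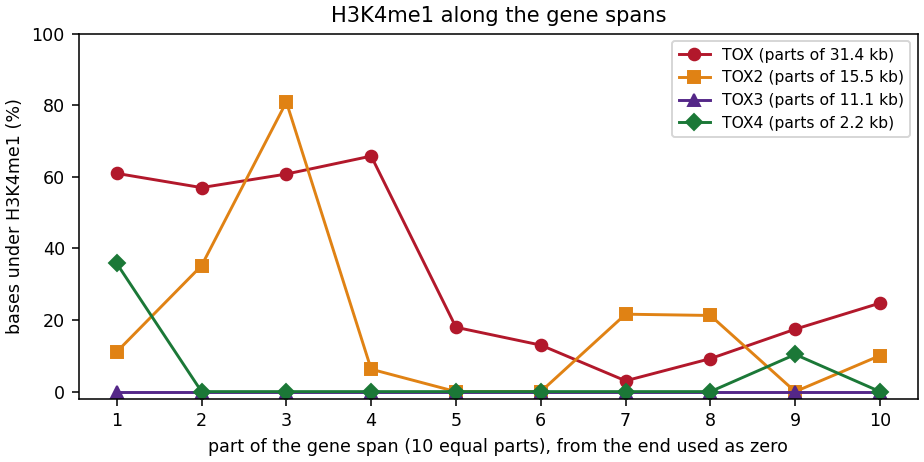
Share of each of 10 equal parts of the gene under H3K4me1 (%), by part counted from the same end of each gene as in the map of called peaks. In TOX the first 4 parts lie between 57.0% and 65.8%, TOX2 is highest in part 3 at 80.9%, TOX3 is at 0 throughout and TOX4 has H3K4me1 in parts 1 and 9 at 35.8% and 10.4%. All called peaks are counted, weak ones included.

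Of the 60 H3K4me1 peaks in the TOX window, 55 were distal, 37 of them inside the gene and 18 in the flanks. The other 5 touched an H3K4me3 peak or the end of a gene, among them a lncRNA gene of the far flank, LOC105375858, which had 418 bp of H3K4me1 and no H3K4me3 at its ends. TOX2 and TOX4 each had 8 distal peaks and TOX3 had 0, so TOX had 6.88 times as many as the next members. The median over all genes was 5, and only 8 genes including TOX (0.0401%) reached 55. All 8 were in the longest length decile, of which they made up 0.400%. The 7 genes with more distal peaks, named after their values were seen, were FOXN3 with 67, TRAPPC9 with 66, DAB1 with 60, UTRN with 59, NCALD with 58, KLF12 with 57 and FARS2 with 56. All 7 had longer spans than TOX, and a longer span gives a wider window. Counting all H3K4me1 peaks inside the gene, distal or not, TOX had 12.4 per 100 kb of gene, TOX4 had 9.10 and TOX2 had 5.82. The TOX4 value rests on 2 peaks, and the distal peaks of the windows were not set per length.

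**Figure D4:**
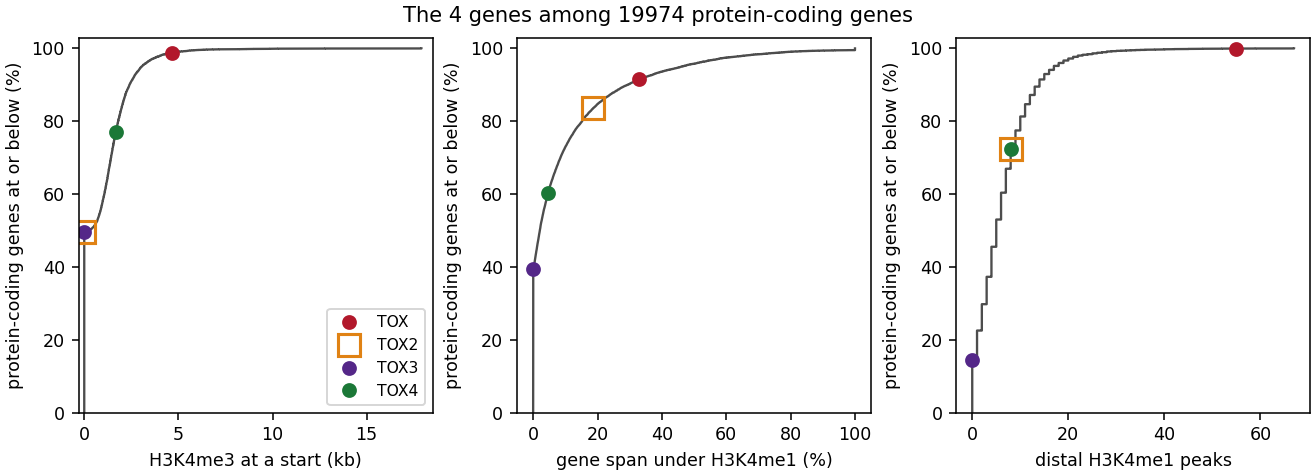
Cumulative share of 19974 protein-coding genes (%, grey line) by H3K4me3 length at a start (kb), share of the span under H3K4me1 (%) and number of distal H3K4me1 peaks, with the 4 family genes marked (TOX2 as an open square, since its value equals that of TOX3 in the first panel and of TOX4 in the last). TOX lies at the upper end of the first and last curves, with 1.19% and 0.0401% of genes at or above it, and lower in the second, with 8.53% at or above it.

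The fold of the H3K4me1 peaks ran over overlapping ranges in TOX, TOX2 and TOX4. It had a median of 2.73 inside TOX, with a range of 1.37 to 4.67, and of 2.96 in TOX2, with a range of 1.91 to 3.95. Over the 15 peaks of the TOX4 window the median was 2.01 and the range 1.54 to 5.54, and over all H3K4me1 peaks the median was 2.37. The flanks of TOX were lower than its interior, with medians of 2.34 over 12 peaks beyond the far end and 1.83 over 9 peaks on the TOX-DT side. TOX thus had the most H3K4me1 peaks of the family, while the TOX2 peaks were longer, with a median of 1926 bp against 1601 bp inside TOX, and had the higher median fold. The local background that the caller expected, worked back from pileup and fold, had a median of 2.65 fragments at the peaks inside TOX, 2.15 in TOX2 and 1.66 in the TOX4 window. It was 2.51 over the H3K4me1 peaks of chromosome 8, against 1.88 on the other autosomes, and its part in the peaks of TOX was not tested.

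**Figure D5:**
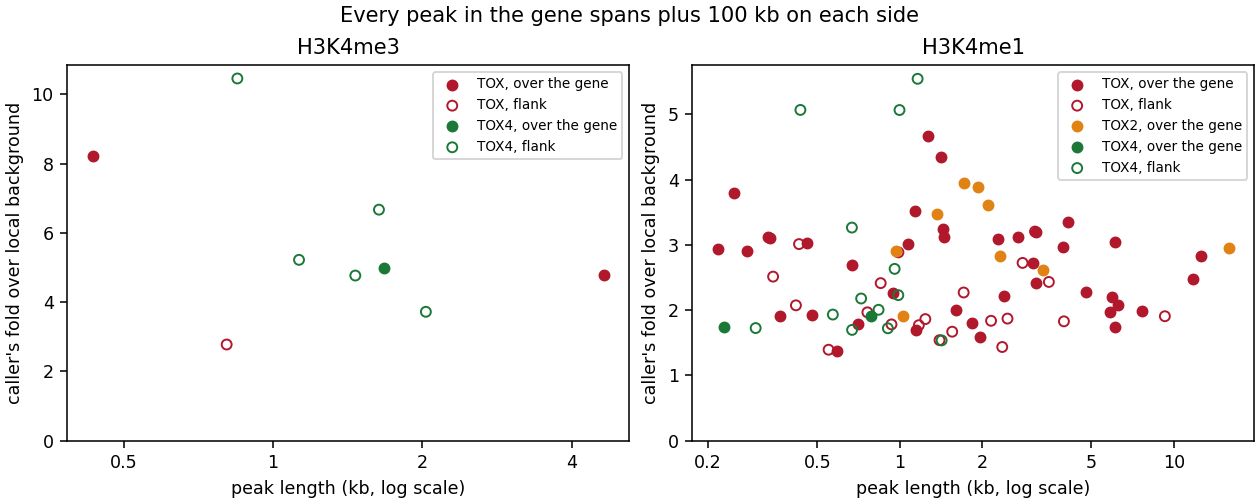
Length (kb, log axis) against fold enrichment for the peaks of each mark in the windows of the 4 genes, coloured by gene, with filled points over the gene and open points in the flanks, 1 point per peak. The TOX H3K4me1 points reach 12541 bp with folds up to 4.67, the longest TOX2 peak is 15855 bp at a fold of 2.96, and the H3K4me3 points of highest fold are the 848-bp peak in the TOX4 window at 10.5 and the 434-bp peak in TOX at 8.23.

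TOX2 spans 154.765 kb on chromosome 20, from 43914852 to 44069616, and had H3K4me1 without H3K4me3. No H3K4me3 peak lay in its window, and the nearest was 248 kb from its first listed start. All 9 of its H3K4me1 peaks touched the gene, covering 28843 bp or 18.6% of it, and both flanks held 0 peaks. That share was reached by 16.5% of all genes and by 6.91% of the longest length decile. Of the 9 peaks, 8 were distal, and the ninth, of 3325 bp with a fold of 2.61, lay over the higher-coordinate end of the gene. The 5 lncRNA genes near TOX2, LOC105372625, LOC124904907, LOC124904908, LINC01728 and LOC124904909, had 0 bp of either mark at their starts.

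A single long region carried most of the H3K4me1 of TOX2. A peak of 15855 bp, from 43940361 to 43956215, held 55.0% of the H3K4me1 bases inside the gene and ranked 338 of 62087 by length. Its fold was 2.96 and its −log10 q 4.02, so it was long and of middling strength. It lay over the later of the listed starts of TOX2, which are 29.8 kb apart, with 5535 bp of the peak before that start and 10319 bp after it. The earlier start was 9.35 kb from the nearest H3K4me1 peak, which measured 1720 bp with a fold of 3.95. Across the 10 equal parts of TOX2 from its lower-coordinate end, coverage was 11.1%, 35.2%, 80.9% and 6.25% in the first 4, then 0, 0, 21.6%, 21.3%, 0 and 10.1%.

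The promoter sequences at these starts are shown because the starts of TOX2 differed in H3K4me1 while neither had H3K4me3. They run 5′ to 3′ from 250 bases before to 50 bases after each start on the plus strand and come from RefSeq (GRCh38.p14), at chr20:43915880-43916179 for the earlier start and chr20:43945646-43945945 for the later. Capitals mark matches on either strand to the GC box GGGCGG, to the CCAAT box, to the TATA box written TATAAA, and to the letters GATA, the core read by GATA factors.
TOX2 earlier start: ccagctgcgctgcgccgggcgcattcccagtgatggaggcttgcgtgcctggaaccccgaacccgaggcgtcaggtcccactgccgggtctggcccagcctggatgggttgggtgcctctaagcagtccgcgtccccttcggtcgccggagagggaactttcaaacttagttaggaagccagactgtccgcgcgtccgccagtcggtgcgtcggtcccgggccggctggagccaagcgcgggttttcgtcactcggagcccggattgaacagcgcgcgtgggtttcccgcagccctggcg
TOX2 later start: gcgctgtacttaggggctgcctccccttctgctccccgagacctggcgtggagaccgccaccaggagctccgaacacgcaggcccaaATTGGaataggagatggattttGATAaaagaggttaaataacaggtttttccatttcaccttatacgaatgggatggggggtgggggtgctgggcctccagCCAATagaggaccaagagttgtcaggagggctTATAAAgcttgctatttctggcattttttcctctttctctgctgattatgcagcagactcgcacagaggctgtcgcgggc
The earlier sequence held 33 CG dinucleotides, a number reached by 17.2% of the 35097 listed promoters, and none of the 4 motifs. The later sequence held 10 CG dinucleotides, reached by 56.4% of promoters, against a median of 14 over all of them. It had TATAAA from −30 to −25 relative to the start, CCAAT from −62 to −58, its reverse complement ATTGG from −163 to −159, and GATA from −141 to −138. Of all listed promoters 11.5% held TATAAA, 34.6% CCAAT, 49.7% GATA and 44.9% GGGCGG on either strand. A match is a description of the letters and not a bound site. None of these matches overlapped another. Positions count the start base as 1 and the base before it as −1.

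Over 22132 such windows at the listed starts of protein-coding genes, H3K4me1 without H3K4me3, as at the later TOX2 start, was found at 6.10%. Neither mark, as at the earlier TOX2 start, was found at 47.2%, H3K4me3 alone, as at TOX4, at 38.5%, and both marks at 8.21%.

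TOX4 spans 21.976 kb on chromosome 14, from 21477195 to 21499170, in a stretch dense with genes. Its H3K4me3 domain of 1671 bp, from 21476334 to 21478004, was shared with the start of RAB2B, a small GTPase gene that ends 235 bp away, with 810 bp inside TOX4 and 861 bp outside it. The domain had a fold of 4.97, a pileup of 13.31 fragments and a −log10 q of 9.59. No base of it lay under H3K4me1, and the nearest H3K4me1 peaks were short, of 570 bp at 305 bp on the RAB2B side and of 786 bp at 157 bp on the TOX4 side. TOX4 held 2 H3K4me1 peaks, of 786 and 228 bp with folds of 1.91 and 1.75, which covered 4.61% of the gene. That share was reached by 39.7% of all genes, and the median of the genes of like length was 4.02%.

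The TOX4 start is shown for comparison with those of TOX2, since its whole window lay under H3K4me3. The sequence is taken from RefSeq (GRCh38.p14) at chr14:21476945-21477244 on the plus strand, again 5′ to 3′, with the same motifs in capitals.
TOX4 start: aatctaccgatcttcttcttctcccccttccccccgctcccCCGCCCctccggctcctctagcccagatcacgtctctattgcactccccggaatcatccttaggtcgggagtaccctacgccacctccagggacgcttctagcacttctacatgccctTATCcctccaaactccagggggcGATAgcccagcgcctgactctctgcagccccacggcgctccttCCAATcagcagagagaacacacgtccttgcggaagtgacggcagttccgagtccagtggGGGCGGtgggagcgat
It held 19 CG dinucleotides, a number reached by 42.9% of promoters. GGGCGG lay from 35 to 40 after the start and its reverse complement CCGCCC from −209 to −204, CCAAT from −25 to −21, GATA from −68 to −65 and its reverse complement TATC from −91 to −88. TATAAA was not among its letters.

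The other 5 H3K4me3 peaks of the TOX4 window lay at the ends of neighbouring genes or inside them. The first lay at the start of SUPT16H, a subunit of the FACT histone chaperone, together with LOC107984643 (2034 bp, fold 3.72). The next lay at a listed start of the chromatin remodeller gene CHD8 (1129 bp, fold 5.22). A further peak covered the higher-coordinate end of CHD8, beside LOC124903283 (1636 bp, fold 6.67). Another lay at the start of METTL3, the RNA adenosine methyltransferase gene whose span overlaps TOX4 by 1033 bp (1466 bp, fold 4.77). The last, of 848 bp inside the zinc finger gene SALL2, had the highest fold of the family windows at 10.5, and it lay away from the listed start of SALL2. SALL2 and the olfactory receptor gene OR10G3 had 0 bp of H3K4me3 at their starts. Of the 8 distal H3K4me1 peaks of the TOX4 window, 7 lay in the flanks and 1 inside the gene, and the strongest H3K4me1 peak of the window, of 1162 bp with a fold of 5.54, lay in the flank on the METTL3 side.

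TOX3 spans 111.387 kb on chromosome 16, from 52436416 to 52547802, and neither it nor the 100 kb on either side held a peak of either mark. The nearest peaks were an H3K4me1 peak of 465 bp at 1630 kb on the lower-coordinate side and an H3K4me3 peak of 978 bp at 507 kb on the other. The stretch without peaks measured 2.25 Mb, and 0.184% of the 66865 gaps between peaks were as long, against a median gap of 5.86 kb. It held 30 genes, of which 5 were protein-coding (LOC105371253, SALL1, HNRNPA1L3, TOX3 and CHD9NB) and 25 were lncRNA genes. These included the neighbours CASC16, LINC03064, LOC107984901, LOC105371262 and LOC105371265. Genes of like length had medians of 1001 bp of H3K4me3 at a start, 2.27% of the span under H3K4me1 and 7 distal peaks. At this depth the marks were not called at TOX3, which does not show that they were absent.

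The genes that work with the family carried the marks as follows, each list being set beside all genes. All 5 genes of the phosphatase complex that holds TOX4 had H3K4me3 at a start, against 50.5% of all genes. PPP1R10, which encodes PNUTS, had 4300 bp, the phosphatase catalytic subunit genes PPP1CB, PPP1CC and PPP1CA had 3135, 2718 and 1429 bp, and WDR82 had 2733 bp. The 1671 bp at TOX4 were thus above the summed length at PPP1CA and below those at the other 4. All 5 had H3K4me1 inside, against 60.6% of all genes.

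Among 9 genes of the calcium and NFAT input to TOX, 8 had H3K4me3 at a start, against 50.5% of all genes, with a median of 2975 bp over the list. All 9 had H3K4me1 inside, against 60.6% of all genes. The greatest summed lengths were at the nuclear receptor gene NR4A3 with 3474 bp and the NFAT gene NFATC3 with 3301 bp. PPP3R1, the calcineurin regulatory subunit, had 3124 bp and NR4A2, with either end used as a start, had 3048 bp. H3K4me3 inside the gene span measured only 515 bp at NR4A3 and 275 bp at NR4A2, against 2666 bp at NFATC3 and 2056 bp at PPP3R1. NR4A1 was the exception, with 0 bp of H3K4me3 and 6 H3K4me1 peaks. The TOX domain of 4643 bp was longer than each of these 9. Among 7 inhibitory receptors of exhausted T cells, by contrast, H3K4me3 stood at the start of 1, ENTPD1 with 941 bp, against the same 50.5%. Of that H3K4me3, 0 bp lay inside the ENTPD1 span. H3K4me1 lay inside 6 of the 7, against 60.6%, and TIGIT had none. LAG3 was covered to 65.5%, CD244 to 62.5%, CTLA4 to 24.4% and PDCD1, which encodes PD-1, to 20.7%. HAVCR2 was covered to only 0.685% and ENTPD1 to 0.0137%. The median of the list was 20.7% of the span under H3K4me1 and 10 distal peaks, against 18.6% and 8 at TOX2, which also lacked H3K4me3 at a start.

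Of 17 other genes that encode a factor with an HMG box, 15 had H3K4me3 at a start, against 50.5% of all genes, and 15 had H3K4me1 inside, against 60.6%. The exceptions were SOX13 and TCF7L1 for H3K4me3, and SOX13 and HBP1 for H3K4me1. The T cell factors TCF7 and LEF1 had 9010 and 8343 bp of H3K4me3, SOX4 had 5468 bp and CIC had 4072 bp. TOX, at 4643 bp, came after TCF7, LEF1 and SOX4. Its 55 distal peaks exceeded the 28 of LEF1 and the 7 of TCF7, in genes of 121385 and 39993 bp.

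The genes nearest to each member were found from percentile ranks in H3K4me3 length, share of the span under H3K4me1 and number of distal peaks, over all protein-coding genes of these 2 libraries. For TOX they were PLCL2, RTN4, SAMSN1, ARID4B and SPN, and PLCL2 had 4694 bp, 32.7% and 47 distal peaks. The genes nearest to TOX2 were MB, LY6G6F-LY6G6D, CHI3L2, SPNS2 and TMIGD1, all with 0 bp of H3K4me3 and 8 distal peaks. For TOX4 they were HELB, RTF1, PRDX1, ACAD10 and TNIP1, with H3K4me3 lengths of 1568 to 1798 bp. TOX3 was tied at 0 in all 3 measures with 2618 other genes, so none of them was nearer than the rest.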

How the data were processed

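The deposited peak lists of the H3K4me1 and H3K4me3 libraries were used, with 1 library per mark. Peaks were called by the authors with MACS2 2.1.0.20150731 in broad mode against the input, at a q of 0.1 for broad and 0.05 for strong regions, with the larger library scaled down and local background windows of 1000 and 10000 bp, as the file headers record. STAR appears in the alignment paths, with a version not given in the sources used here. GRCh38 was the build, per the submitters' processing notes. The deposited pileup is a coverage signal of extended fragments (201 bp for H3K4me1, 187 bp for H3K4me3), the deposited fold is a ratio over the local background, and the deposited −log10 p and −log10 q belong to the same regions. All of these values are the authors' own, are means over each broad region, and were used to describe, rank or filter peaks within a list. The deposited interval lists (other columns) repeat the positions.

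Gene spans came from RefSeq (GRCh38.p14). Starts were listed for TOX2 and TOX4, and for TOX and TOX3 either end of the span served as a start, so a 3′ end could count. Either end was used in the same way for 4161 of the 19974 protein-coding genes. H3K4me3 peaks up to 1 kb apart were merged into domains, and overlap meant 1 bp. H3K4me3 length at a start is the sum of all domains within 1 kb of any start of the gene. All protein-coding genes were measured the same way with pandas 2.3.3 and numpy 2.4.6 in Python 3.11.15, and the interval code was tested on simulated data. Joining H3K4me1 peaks up to 12.5 kb apart was chosen after seeing the data. Expected background was (pileup + 1)/fold − 1, which is approximate for means over regions. Named genes were the members, their neighbours, the list genes at the extremes and the 5 nearest genes by rank. The members and the lists were chosen with earlier results of these data known. Alternatives covered stricter q, overlap, window, merging and assignment.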

Additional observations from a re-analysis of the deposited data

How the results depend on the processing

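The order of the 4 genes was recomputed under 14 alternatives, of which 2 (either end as a start for every gene, and H3K4me1 peaks with a fold of at least 2) were chosen after seeing the data. Several of these cannot move a given value: window size does not enter H3K4me3 length or the share of the span under H3K4me1, H3K4me3 merging does not enter that share, and stricter filters cannot lift a 0. A count of unmoved values is therefore no measure of stability. With only peaks of −log10 q of at least 10, 0 pairs kept their order for the share of the span and 1 pair for distal peaks, because no H3K4me1 peak of the family passed, while TOX kept 4643 bp of H3K4me3 and TOX4 had 0 bp. With as many H3K4me1 as H3K4me3 peaks, the strongest by −log10 q, TOX was covered to 3.57% and TOX2 to 4.60%, which turned their order, and distal peaks numbered 11 at TOX, 4 at TOX2 and 1 at TOX4. Peaks with a −log10 q from 3 upward covered 17.8% of TOX and 17.3% of TOX2. Those with a fold from 2 upward covered 24.5% and 18.0%. Where a peak counted only for its nearest gene, TOX4 had 0 bp of H3K4me3, because its domain was shared with RAB2B. Where the tie of TOX2 and TOX4 at 8 distal peaks gave way, TOX2 was mostly ahead. The counts became 8 and 1 where a peak counted only for its nearest gene, and 12 and 8 with wider windows. They were 8 and 7 with narrower windows, 8 and 6 with 2.5 kb around gene ends, and 7 and 4 under the fold filter. Stricter q also put TOX2 ahead as long as any peak passed. Among the 14 alternatives TOX4 was ahead only where overlap meant 50% of a peak, with 12 against 8. That setting also loosened the distal rule. A peak was then left out only if 50% of it lay on H3K4me3 or within 1 kb of gene ends, so the count could rise. No paired analysis was possible because each mark had 1 library, and for the same reason no library could be left out. A region without a called peak is not shown to lack the mark.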
